A study of Mus musculus with 12 samples.

Results

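Neurexins, neuroligins and LRRTM proteins are adhesion molecules that join the presynaptic and the postsynaptic side of a synapse. Their genes were followed by symbol through a table of estimated counts from adult mouse cortex, in which 9 of 21738 symbols belong to the set: Nrxn2, Nrxn3, Nlgn1, Nlgn2, Nlgn3, Lrrtm1, Lrrtm2, Lrrtm3 and Lrrtm4. The study asked which roles of TET1, a dioxygenase that oxidises 5-methylcytosine in DNA, need its enzyme activity and which do not, as its title states. Poly(A) RNA of whole adult cortex was sequenced for WT, HxD and KO, the 3 Tet1 genotypes, with 4 libraries each. The labels spell out neither allele and give no strain, sex, exact age or treatment. Nor do they say whether a library is 1 animal or whether the deletion is confined to a cell type. Each p-value below therefore measures only how these samples vary, and that variation may be technical.

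Neurexins sit in the presynaptic membrane, and each neurexin gene makes long alpha and short beta forms from separate start sites and many splice variants. Neuroligins are their classical postsynaptic partners, with neuroligin 1 found mainly at excitatory and neuroligin 2 mainly at inhibitory synapses. LRRTMs are leucine-rich repeat proteins of excitatory postsynapses, where they bind neurexins or heparan sulfate proteoglycans and help to hold AMPA receptors. The table has 1 row per gene, so the alpha and beta forms and the splice variants of a neurexin cannot be told apart in it.

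DNA in the CG context is the substrate of TET enzymes, and promoter sequences are therefore shown with every CG in capitals. RefSeq promoter windows on GRCm38.p6, from 250 bases before to 50 after a start, were found by symbol for 6 of the 9 genes, not for Nrxn2, Nlgn3 and Lrrtm2, with 10 windows in all. Shown are the window with the most CG, the window with the fewest, and that of Lrrtm3, whose level varied least. The Nlgn2 window lies at chr11:69837735-69838034 on the minus strand, the Nrxn3 window at chr12:88794254-88794553 on the plus strand and the Lrrtm3 window at chr10:64090206-64090505 on the minus strand.
Nlgn2: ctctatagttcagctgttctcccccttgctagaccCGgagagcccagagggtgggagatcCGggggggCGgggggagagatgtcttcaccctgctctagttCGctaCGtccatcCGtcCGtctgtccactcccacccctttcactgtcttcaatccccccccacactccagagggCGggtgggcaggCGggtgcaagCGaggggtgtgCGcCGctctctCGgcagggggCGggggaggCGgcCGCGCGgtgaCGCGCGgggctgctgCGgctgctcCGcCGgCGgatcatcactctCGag
Nrxn3: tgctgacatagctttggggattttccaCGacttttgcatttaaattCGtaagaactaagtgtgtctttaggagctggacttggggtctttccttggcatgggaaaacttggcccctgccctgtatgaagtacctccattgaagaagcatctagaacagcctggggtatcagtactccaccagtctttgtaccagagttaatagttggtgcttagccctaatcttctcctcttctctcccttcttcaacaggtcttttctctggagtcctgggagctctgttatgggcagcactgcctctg
Lrrtm3: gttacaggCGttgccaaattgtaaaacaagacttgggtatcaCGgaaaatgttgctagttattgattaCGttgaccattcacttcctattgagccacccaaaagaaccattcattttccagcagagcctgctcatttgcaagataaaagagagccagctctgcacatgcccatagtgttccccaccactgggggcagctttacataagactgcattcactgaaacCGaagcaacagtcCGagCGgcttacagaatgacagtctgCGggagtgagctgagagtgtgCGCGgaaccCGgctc

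The Nlgn2 window held 26 CG in 300 bases, a number reached by 16.9% of the 32851 windows in the RefSeq table. Another Nrxn3 window, at chr12:89812233-89812532, held 16 and the one shown held 2, while 85.9% of all windows held at least 2. The Lrrtm3 window held 10 CG and that of Lrrtm1 held 7. The 2 windows of Nlgn1 held 6 and 14, and those of Lrrtm4 held 4 and 9. The median over all windows was 7, and 94.6% held at least 1 CG, a motif that reads the same on both strands. Windows of one and the same gene lay on both sides of that median for Nlgn1, Lrrtm4 and Nrxn3, whose remaining window held 6. No methylation was measured in these libraries.

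Library totals ran from 8310783 to 10915574 estimated counts for WT, from 7767787 to 10347432 for HxD and from 5791642 to 9535409 for KO, so the shallowest libraries were KO libraries. Tet1 itself was listed at 0 in all WT and KO libraries, and at 1, 0, 63 and 67 counts in HxD 1 to 4, so the genotype labels cannot be checked from this gene. Gapdh, a glycolytic enzyme of every cell, was listed at 0 in all 12 libraries, and a 0 is therefore given below only as listed at 0. The 8 pan-neuronal markers summed to 7403 to 10851 CPM (CPM being the count scaled to library size) for WT, 6235 to 10975 for HxD and 8931 to 11160 for KO. Excitatory markers summed to 2850 to 3987, 2586 to 3581 and 2551 to 2987 over their 9 genes, although the layer marker Rorb was listed at 0 in 11 libraries. Of the glial and vascular defining markers, Csf1r of microglia and Pecam1 of endothelium were listed at 0 in all 12. WT 4 stood apart from the other WT libraries in 8 oligodendrocyte markers, at 4797 summed CPM against 2002 to 2094. In bulk tissue, fewer cells of a type and less RNA per cell cannot be told apart.

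Levels were compared between genes per kilobase of the longest GENCODE transcript. Nrxn2 was highest, with a median of 50.6 CPM per kb over the 12 libraries, and lay above Lrrtm3 in 11 of them. Lrrtm3, Nlgn3 and Lrrtm1 followed at medians of 22.4, 19.5 and 17.8 CPM per kb. Nlgn3 was above Lrrtm1 in 6 libraries of 12, so these neighbours do not differ beyond their spread. Lrrtm2, Lrrtm4, Nlgn2 and Nrxn3 formed a lower set at medians of 1.51, 1.36, 1.25 and 0.931 CPM per kb, whose order also changed between libraries. Nlgn1 was listed at 0 in 10 libraries. Lrrtm2 had the widest place in this order, from rank 2 to rank 8 of the 9 genes.

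**Figure D1:**
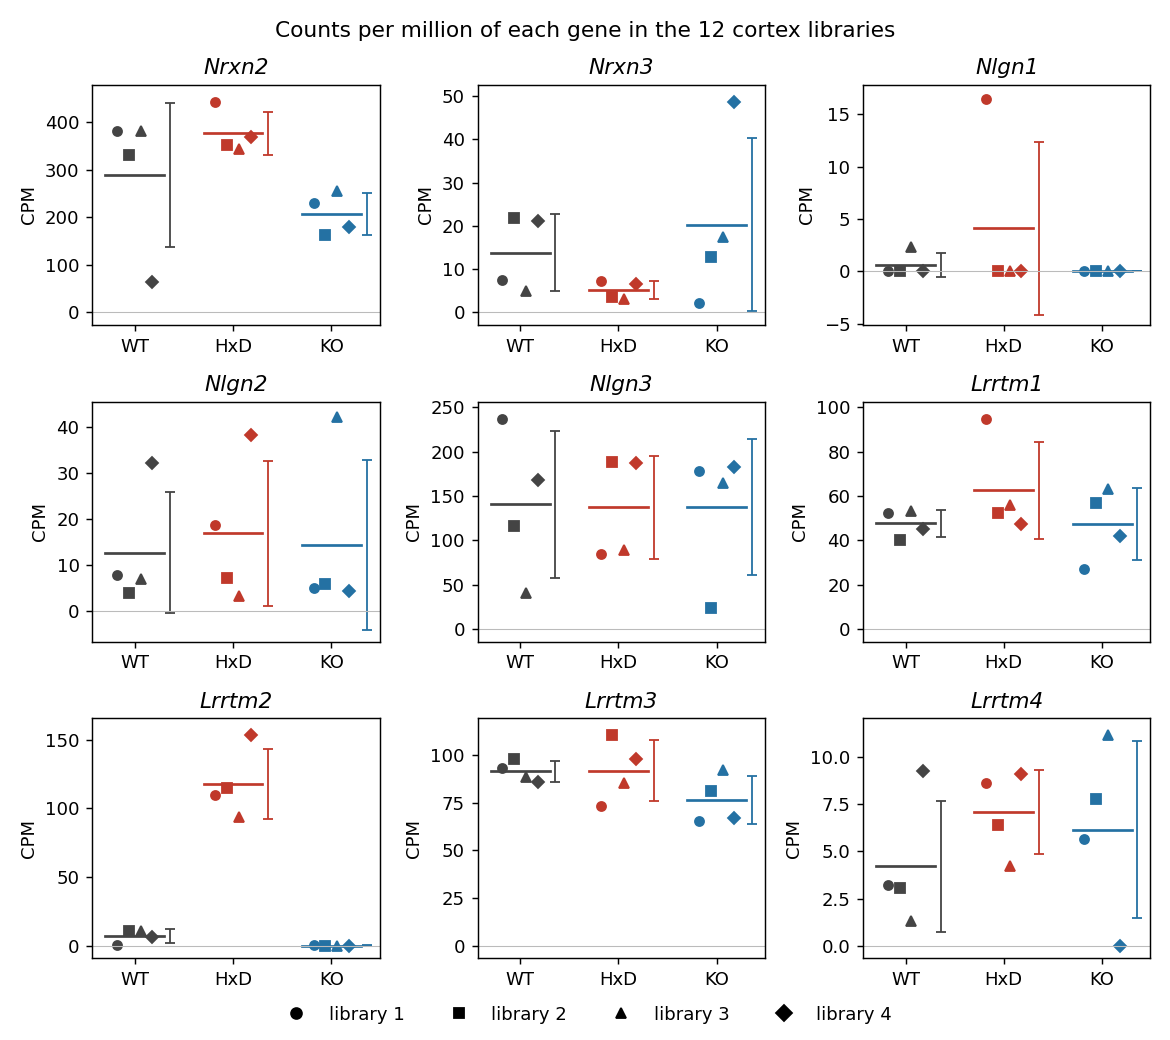
Each panel plots the CPM of 1 gene (y axis, linear) in the WT, HxD and KO libraries (x axis). Marker shapes give the library number, horizontal bars the mean and vertical bars 1 SD (n = 4). Lrrtm2 separates HxD from WT and KO, with HxD between 93.7 and 153 CPM. Nrxn2 in WT 4 and Nlgn2 in WT 4, HxD 4 and KO 3 stand away from their own groups.

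Among the neurexins, Nrxn2 held 381, 331, 381 and 63.1 CPM in WT 1 to 4, and 443, 352, 344 and 369 in HxD 1 to 4. Its KO libraries held 231, 162, 256 and 179 CPM. All KO libraries thus lay below all HxD libraries, while WT covered both because WT 4 was lower than any other library. The group mean was 289 ± 152 CPM for WT, 377 ± 45.3 for HxD and 207 ± 43.8 for KO (SD, n = 4). Oligodendrocyte markers were high in WT 4, in KO and in HxD 2. Their summed CPM was 4797 in WT 4, 3279 to 3864 in KO and 4234 in HxD 2. It was 2002 to 2094 in WT 1 to 3 and 1657, 1423 and 2311 in HxD 1, 3 and 4. HxD 2 held 352 CPM of Nrxn2, above every KO library. Of 7 tested oligodendrocyte markers, 7 lay above 0 in KO against HxD (median log2 fold change 0.72) and 5 in KO against WT (0.36). In both, 0 passed the edgeR test and 0 had an unadjusted p below 0.05, and Mal was listed at 0 in 11 libraries. Astrocyte markers summed to 3099 to 3972 CPM for WT, 3134 to 3974 for HxD and 3851 to 4167 for KO. In KO against HxD, 6 of 8 tested astrocyte markers lay above 0 and 2 below (median 0.21). By edgeR 0 passed and 4 had an unadjusted p below 0.05, against 11.6% of all tested genes. The part of oligodendrocyte and astrocyte markers in the Nrxn2 levels was not tested. The fitted log2 fold change of KO against HxD was -0.87 ± 0.43 (SE) with an edgeR adjusted p of 0.476 over all genes. The same difference passed without WT 4, at -0.87 with an adjusted p of 0.0245, and did not pass in the fit of the HxD and KO libraries alone, at -0.88 with an adjusted p of 0.0737. KO against WT moved from -0.48 (adjusted p = 0.806) to -0.82 without WT 4 (adjusted p = 0.0885), and HxD against WT from 0.38 (adjusted p = 0.999) to 0.05 (adjusted p = 1).

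Nrxn3 held 7.53, 21.7, 4.86 and 21.2 CPM in WT 1 to 4. In HxD 1 to 4 it held 7.21, 3.51, 3.04 and 6.63 CPM, and in KO 1 to 4 it held 2.23, 12.7, 17.3 and 48.7. The HxD libraries were low throughout but overlapped with both other groups, since WT 3 and KO 1 were as low. Its log2 fold changes were -1.43 ± 0.79 in HxD against WT and 1.98 ± 0.80 in KO against HxD (SE, edgeR adjusted p = 0.999 and 0.377). KO 4 carried the KO level: without it KO against HxD was 1.06, and KO against WT turned from 0.55 to -0.38. Nrxn2 and Nrxn3 were the pair with the lowest correlation among the 8 tested genes (Pearson r of log2 CPM = -0.50 over 12 libraries, given as a description).

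Nlgn1, the neuroligin of excitatory synapses, was listed at 0 in all but WT 3, with 19 estimated counts, and HxD 1, with 153. It did not pass the filter on low counts and had an adjusted p of at least 0.535 in edgeR without that filter. Nlgn2, the neuroligin of inhibitory synapses, held 7.64, 3.90, 6.81 and 32.1 CPM in WT 1 to 4. HxD 1 to 4 held 18.5, 7.15, 3.16 and 38.2 CPM of it, and KO 1 to 4 held 4.97, 5.88, 42.0 and 4.27. Each genotype thus had 1 library at 32.1 CPM or more, and apart from HxD 1 at 18.5 the other libraries lay at 7.64 or less. Log2 fold changes against WT were 0.41 (SE 0.995) for HxD and 0.19 (SE 0.995) for KO (edgeR adjusted p = 0.999 and 0.979), and single libraries decided both. Without WT 4 they were 1.45 and 1.22, without HxD 4 the HxD value turned to -0.40, and without KO 3 the KO value turned to -1.32. The gene's largest range within a genotype was 10.6-fold, on CPM plus 0.5.

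Lrrtm4, an LRRTM that binds heparan sulfate proteoglycans, was high in the same libraries as Nlgn2. It held 3.19, 3.05, 1.34 and 9.22 CPM in WT 1 to 4, then 8.61, 6.37, 4.22 and 9.07 in HxD 1 to 4, and 5.65, 7.75, 11.1 and 0 in KO 1 to 4. Its log2 fold changes against WT were 0.75 in HxD and 0.55 in KO (edgeR adjusted p = 0.999 and 0.93). Without WT 4 they were 1.47 and 1.26, and the KO value was 0.09 without KO 3 and -0.02 in limma-voom. In every genotype the library with the highest Nlgn2 level was also the one with the highest Lrrtm4 level: WT 4, HxD 4 and KO 3. The correlation of Nlgn2 with Lrrtm4 was the highest of the 28 pairs of tested genes (r = 0.60, and 0.59 with genotype means removed, n = 12 libraries). KO 3 and HxD 4 were also the deepest libraries of their genotypes, at 9535409 and 10347432 counts, and the part of depth in this was not tested. Over all pairs r ranged from -0.50 to 0.60 with a median of 0.15.

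Nlgn3, an X-linked neuroligin, held 237, 116, 40.6 and 168 CPM in WT 1 to 4. In HxD it held 85.1, 189, 89.2 and 187 CPM, and in KO 179, 23.4, 165 and 183. The group means of 140.5 ± 83.2, 137 ± 58.1 and 138 ± 76.4 CPM were close, and single libraries lay as low as 23.4. The 95% intervals of the difference were -1.44 to 1.37 for HxD and for KO against WT on the log2 scale, so changes within these bounds were not excluded.

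Lrrtm2, an LRRTM that binds neurexins and AMPA receptors, was the one gene of the set that passed the test. Its estimated counts were 4, 111, 91 and 65 in WT 1 to 4, and 1016, 884, 800 and 1571 in HxD 1 to 4. In KO 1 to 4 they were 2, 1, 1 and 1. The 3 genotypes do not overlap: every HxD library lay above every WT library, and every WT library above every KO library. The step from WT to KO rests on few counts, since WT 1 held 4 (0.456 CPM) and KO 1 held 2 (0.343 CPM). In CPM, HxD stood at 118 ± 25.3, WT at 7.15 ± 4.91 and KO at 0.189 ± 0.106 (SD, n = 4). WT was itself uneven, since WT 1 held 0.456 CPM against 6.52 to 11.1 in the others.

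Lrrtm2 rose in HxD against WT by 4.04 ± 0.67 on the log2 scale (SE, edgeR adjusted p = 0.0138), and was lower in KO than in HxD by a log2 fold change of -9.26 ± 0.94 (adjusted p = 2.8e-04). In KO against WT the log2 fold change was -5.22 ± 0.89 with an adjusted p of 0.0687. The KO level rests on 5 counts in all, so the ratios carry wide counting intervals: HxD over KO was 681 (95% interval 292 to 2099) and WT over KO was 41.3 (17.5 to 128), from exact Poisson limits that cover counting error only. The HxD call was lost without WT 4 (adjusted p = 0.0686) and in a fit of the 8 libraries alone (0.0833), and limma-voom did not call KO against HxD (0.355). KO against WT passed without WT 1 (3.2e-04) and in the DESeq2 Wald test (5.2e-06). Lrrtm2 passed the filter on low counts only through HxD, where it was high, and did not pass it among the WT and KO libraries alone, which limits each of these tests. With no filter its adjusted p was 0.0163 in HxD and 0.0764 in KO against WT, and 2.9e-04 between KO and HxD. Striatal markers lay in the same order of genotypes as Lrrtm2, with 7 of 7 tested genes above 0 in HxD against WT and 7 of 7 below 0 in KO against either, although 0 passed the edgeR test (1, 1 and 3 at an unadjusted p below 0.05). Their defining genes Drd1 and Pde10a were listed at 0 in 4 and 10 of the 12 libraries. Summed striatal markers overlapped between the genotypes, at 359 to 637 CPM for WT against 232 to 1082 for HxD and 269 to 408 for KO. In HxD 1 to 4 the sum was 534, 644, 1082 and 232 CPM, where Lrrtm2 held 109, 115, 93.7 and 153 CPM. HxD 4 thus had the lowest striatal sum and the highest Lrrtm2 level of its genotype, and HxD 3 the reverse. The part of these markers in the Lrrtm2 levels was not tested.

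Lrrtm2 lies inside Ctnna1, the gene of alpha-E-catenin, on the opposite strand, and 95 bases of its exons overlap Ctnna1 exons in GENCODE. Without a stated strand setting, reads of that stretch cannot be assigned to either gene. Ctnna1 held 869 to 1163 counts for WT, 752 to 1050 for HxD and 684 to 1026 for KO, and its log2 fold change was -0.04 ± 0.12 in HxD and 0.20 ± 0.12 in KO relative to WT, and 0.24 ± 0.12 between KO and HxD (SE, adjusted p = 0.999, 0.65 and 0.464). The 95% intervals of the host gene reached at most 0.51 from 0 on the log2 scale. The fitted changes of Lrrtm2 were 4.04, -5.22 and -9.26 in the same order of comparisons. Over single libraries, Ctnna1 spanned 684 to 1163 counts and Lrrtm2 spanned 1 to 1571. Counts over the whole of Ctnna1 do not show how reads of the shared stretch were assigned, and the part of those reads in the Lrrtm2 counts was not tested.

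**Figure D2:**
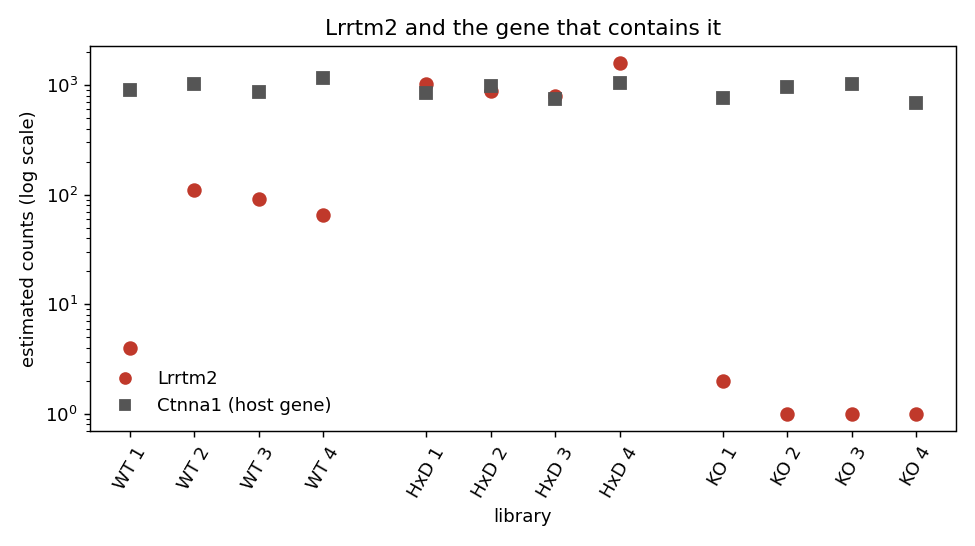
Estimated counts (y axis, log scale) of Lrrtm2 (circles) and Ctnna1 (squares) in each of the 12 libraries (x axis). Lrrtm2 lies between 800 and 1571 in HxD, between 4 and 111 in WT and at 1 or 2 in KO, while Ctnna1 stays between 684 and 1163.

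Lrrtm1 and Lrrtm3 also lie inside alpha-catenin genes on the opposite strand, Ctnna2 and Ctnna3, without exon overlap. Lrrtm1 ranged over 40.2 to 53.1 CPM across WT, 47.2 to 94.96 across HxD and 26.9 to 63.2 across KO, with HxD 1 highest and KO 1 lowest. Its interval of HxD against WT ran from -0.23 to 1.02 on the log2 scale, and that of KO against WT from -0.64 to 0.61. Ctnna2, its host, varied far more, from 1.71 to 37.4 CPM in WT against 0.754 to 3.51 in HxD and 1.37 to 6.66 in KO (HxD against WT, edgeR adjusted p = 0.745). Ctnna3 was listed at 0 in all 12 libraries.

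Lrrtm3 was the steadiest of the 9 genes. It held 93.1, 98.0, 88.2 and 86.0 CPM in WT 1 to 4, then 73.3, 110.2, 85.1 and 98.0 in HxD 1 to 4, and 65.6, 80.8, 91.9 and 67.1 in KO 1 to 4. Its interval of HxD against WT was -0.30 to 0.31 on the log2 scale, the narrowest of the set. KO lay at 76.4 ± 12.4 CPM against 91.3 ± 5.32 in WT (SD, n = 4), with overlapping libraries and a log2 fold change of -0.26 ± 0.14 (SE, edgeR adjusted p = 0.622). It was -0.16 after each library's trend with transcript length was removed (adjusted p = 0.782).

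Because of Lrrtm2, the makeup of the LRRTM set differed between genotypes. Lrrtm2 made up 26.7% to 38.5% of the summed LRRTM level per kilobase in HxD, 0.19% to 4.55% in WT and 0.0397% to 0.222% in KO. The other 3 LRRTM genes together held 39.3 to 42.4 CPM per kb for WT, 41.7 to 52.9 for HxD and 27.2 to 47.5 for KO, with overlap between all genotypes. These shares describe the table and were not tested.

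Across the set, 1 of 8 tested genes was called in HxD against WT, where edgeR called 0.898% of 11693 genes (0.487% higher, 0.411% lower), and 1 of 8 had an unadjusted p below 0.05, against 4.05% of all. The libraries of 1 did not overlap, against 3.48% of all genes. In each case the gene was Lrrtm2, which passed the filter on low counts only through HxD, where it was high. Its calls and lack of overlap, here and in KO against HxD, are therefore given as counts only. KO against WT called 0 of 8 in edgeR, where 0.154% of all genes were called (0.0428% higher, 0.111% lower), and Lrrtm2 alone had an unadjusted p below 0.05 (9.48% of all genes). Lrrtm2 was also the 1 gene of 8 whose libraries did not overlap there, against 7.20% of all genes. By the DESeq2 Wald test 1 of 8 was called in that comparison and by limma-voom 0. KO against HxD called 1 of 8 against 1.02% of all genes (0.445% higher, 0.573% lower). Lrrtm2 and Nrxn3 had an unadjusted p below 0.05 there, as did 11.6% of all genes, and 2 of 8, Nrxn2 and Lrrtm2, did not overlap between genotypes against 7.59%. The median log2 fold change over the 8 genes was 0.39 in HxD and -0.02 in KO relative to WT, and -0.24 between KO and HxD, beside 0.01, 0.01 and 0.00 over all tested genes. Values below 0 before rounding were found for 2, 5 and 7 of the 8 genes, and for 48.7%, 49.1% and 49.8% of all tested genes. The 7 include Nlgn3, whose value in KO against HxD rounds to 0.00. The comparisons share libraries, so these 3 values are not independent.

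**Figure D3:**
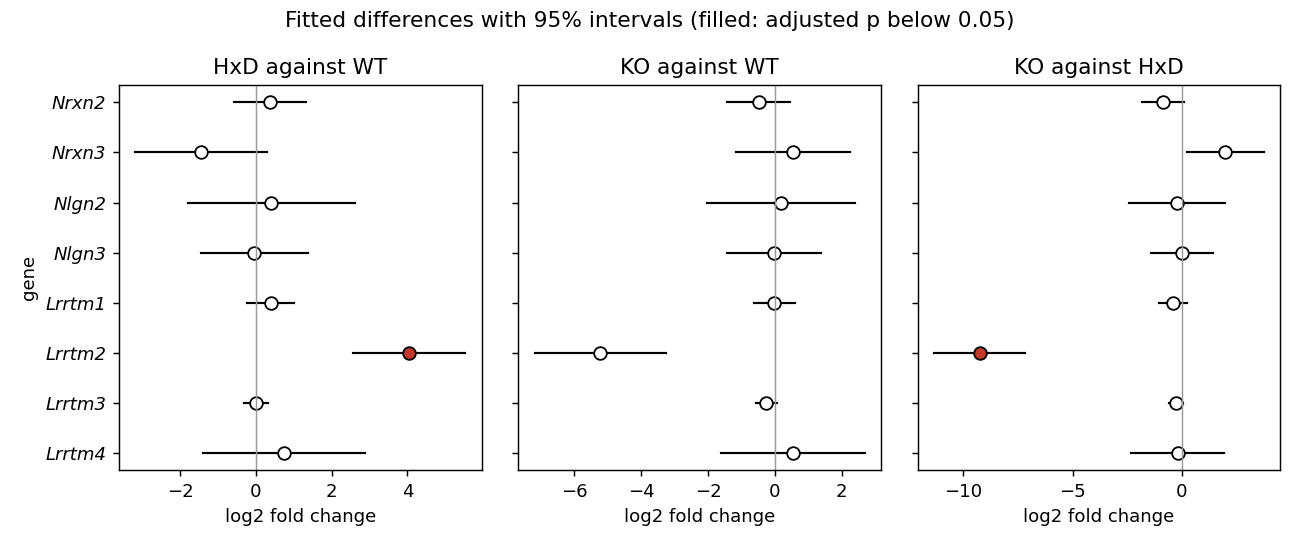
Fitted log2 fold change (x axis) of the 8 tested genes (y axis) in the 3 comparisons, with 95% intervals from edgeR. Filled points passed at an adjusted p below 0.05. Lrrtm2 is filled at 4.04 in HxD against WT and at -9.26 in KO against HxD, and open at -5.22 in KO against WT. The intervals of the other genes include 0, except that of Nrxn3 in KO against HxD, which runs from 0.21 to 3.75 and did not pass after adjustment.

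Spread within a genotype was large for this set. The biological coefficient of variation, the spread between libraries of a genotype beyond counting noise, had a median of 0.629 over the 8 genes and 0.288 over all tested genes. It was 0.42 for Nrxn2 and 0.608 for Nlgn3, higher than for 95.6% and 96.7% of genes within 1.5-fold of their level. Lrrtm3 was ordinary at 0.169, above 52.4% of such genes. On CPM plus 0.5, 6 of the 8 genes spanned more than 4-fold within at least 1 genotype, against 25.5% of all tested genes, and 4 spanned more than 8-fold, against 16.2%. RefSeq lists 51 transcripts for Nrxn3, 17 for Nlgn1, 10 for Lrrtm4 and 4 for Nrxn2 and for Nlgn2, but 1 for Nlgn3 and for Lrrtm2, and also 1 for Lrrtm3. GENCODE lists 18 for Nrxn2, 6 for Nlgn3, 4 for Lrrtm3 and 3 for Lrrtm2, so the annotations differ in this count.

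**Figure D4:**
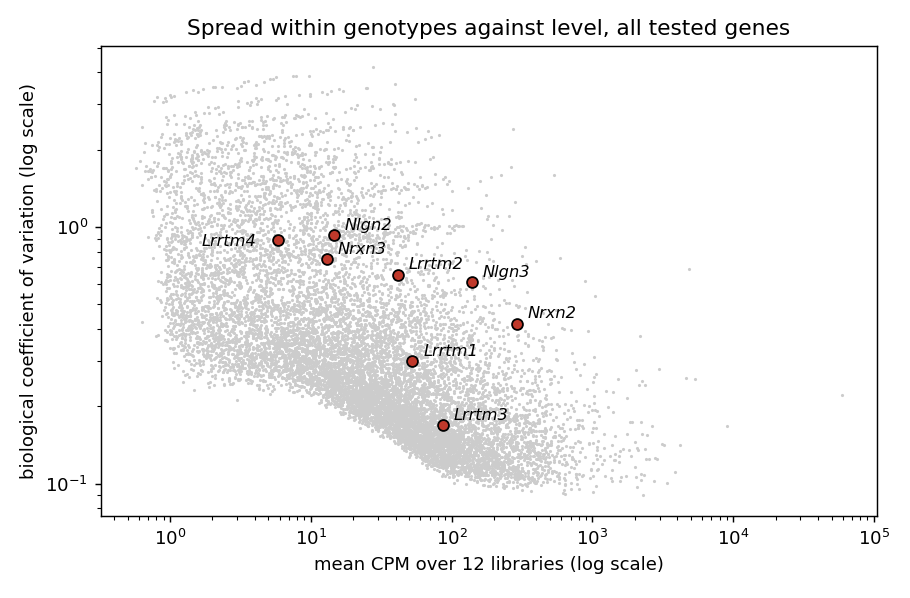
Biological coefficient of variation (y axis, log scale) against mean CPM over 12 libraries (x axis, log scale) for all 11693 tested genes (grey) and the 8 tested members (red). Nrxn2 and Nlgn3 lie well above genes of similar level, and Lrrtm3 at 0.169 lies inside the main cloud.

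Genes whose pattern over the 12 libraries was among the 5 most like that of Lrrtm2 included Csad, an enzyme of taurine synthesis, the adaptor Grb10, the coactivator Edf1 and Pdrg1, with Pearson r of log2 CPM from 0.957 to 0.974. Edf1, for example, had a mean of 191 CPM in HxD against 13.9 in WT and 4.36 in KO. The order in which every HxD library exceeds every WT library and every WT library every KO library was held by 36 of 11693 tested genes (0.308%), and the other 5 orders by 0 to 13 genes each. In 20 of the 36, Lrrtm2 among them, each group mean was more than 8 times the next, against 0 or 1 gene in each other order. Actb, the gene of beta-actin, was among the 36, with means of 1411 CPM in HxD and 0.78 in WT and a listing at 0 in all KO libraries. This order and its steps were looked for, and Actb was chosen, after the values of Lrrtm2 were seen. Whether these rows were quantified differently between genotypes was not tested.

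Partner genes were read from 4 lists. Of the neurexin ligands and cis partners, 1 of 17 tested genes passed in HxD against WT, 0 in KO against WT and 0 in KO against HxD by edgeR, with 1, 3 and 3 at an unadjusted p below 0.05. These shares over all tested genes were 0.898%, 0.154% and 1.02% called and 4.05%, 9.48% and 11.6% unadjusted. The gene that passed was Adgrl3, a latrophilin that binds teneurins and FLRT proteins, with 20 to 83 counts per WT library, a listing at 0 in all HxD libraries (adjusted p = 0.0384) and 0 to 2 counts in KO (adjusted p = 0.205 against WT). Adgrl3 passed the filter on low counts only through WT, where it was high, so it had to differ to be tested. Clstn1, a calsyntenin, had a mean of 162 ± 97.5 CPM in KO and 49.8 ± 29.0 in WT and 44.5 ± 33.8 in HxD (adjusted p = 0.406 and 0.28). C1ql3, a secreted C1q-like protein, averaged 168 ± 36.5 CPM for KO and 284 ± 70.4 for HxD (adjusted p = 0.321). List medians were -0.16, -0.19 and -0.04 on the log2 scale in that order, and counting Adgrl3 at the limit that 0 counts allow left them the same.

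Intracellular partners, which tie these proteins to scaffolds, had 0 of 20 genes past the edgeR test in each comparison and 0, 1 and 2 at an unadjusted p below 0.05, in the same order. Mpp2, a MAGUK scaffold, had a mean of 228 ± 12.0 CPM in KO and 272 ± 31.4 in WT and 278 ± 19.9 in HxD (adjusted p = 0.398 and 0.261). Shank3, a postsynaptic scaffold, spanned 96 to 1354 counts in HxD and 0 to 147 in KO (adjusted p = 0.428). Apba1, the adaptor Mint1, had a mean of 435 ± 80.8 CPM in HxD and 517 ± 34.2 in WT, and Cask, which binds the neurexin tail, at 8.93 ± 12.6 against 3.06 ± 1.45 (both adjusted p = 0.999). Lin7a, which forms a complex with CASK and Mint1, averaged 33.5 ± 4.95 CPM for KO and 42.1 ± 5.28 for WT (adjusted p = 0.581). The list medians of -0.01, -0.09 and -0.06 were near those of all genes.

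Regulators of neurexin splicing had 0 of 8 genes past the edgeR test in each comparison, with 0, 1 and 0 at an unadjusted p below 0.05. Nova2, a neuronal splicing factor, had a mean of 73.9 ± 2.37 CPM in KO and 108 ± 10.7 in WT, with no overlap of the libraries (SD, n = 4, adjusted p = 0.397), and at 97.0 ± 31.0 in HxD. Khdrbs2, also known as SLM1, stood at 11.3 ± 2.01 in KO and 9.21 ± 0.313 in WT (adjusted p = 0.674). Rbfox1 averaged 296 ± 56.0 CPM for KO and 352 ± 40.4 for HxD (adjusted p = 0.579). In HxD against WT, Ptbp2 stood at 51.6 ± 51.6 against 23.4 ± 5.18 CPM and Rbfox3 at 49.2 ± 23.2 against 35.2 ± 7.41 (both adjusted p = 0.999). The list median was 0.34 in KO against WT, and 0.08 and -0.03 in the other comparisons.

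Among other organisers that span the synapse, 0 of 32 tested genes passed in HxD against WT, 0 in KO against WT and 1 in KO against HxD by edgeR, with 1, 6 and 6 at an unadjusted p below 0.05. The gene that passed was Cadm1, the adhesion protein SynCAM1. Its counts were 144 to 248 in HxD, 74 to 117 in WT and 18 to 43 in KO, the same order as for Lrrtm2 and again without overlap. Cadm1 fell in KO against HxD by 2.34 ± 0.33 on the log2 scale (SE, adjusted p = 0.00324), and its differences from WT were 1.02 ± 0.31 in HxD and -1.31 ± 0.32 in KO (adjusted p = 0.51 and 0.189). Ntrk3, a neurotrophin receptor that also binds the presynaptic phosphatase PTPσ, averaged 169 ± 1.87 CPM for KO and 235 ± 41.4 for WT (adjusted p = 0.269). Ptprd, another such phosphatase, averaged 8.62 ± 4.65 CPM for HxD and 28.2 ± 29.2 for WT (adjusted p = 0.999). The libraries of 1, 6 and 5 of the 32 genes did not overlap in the 3 comparisons, against 3.48%, 7.20% and 7.59% of all tested genes. An unadjusted p below 0.05 was found for 4.05%, 9.48% and 11.6% of all tested genes.

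**Figure D5:**
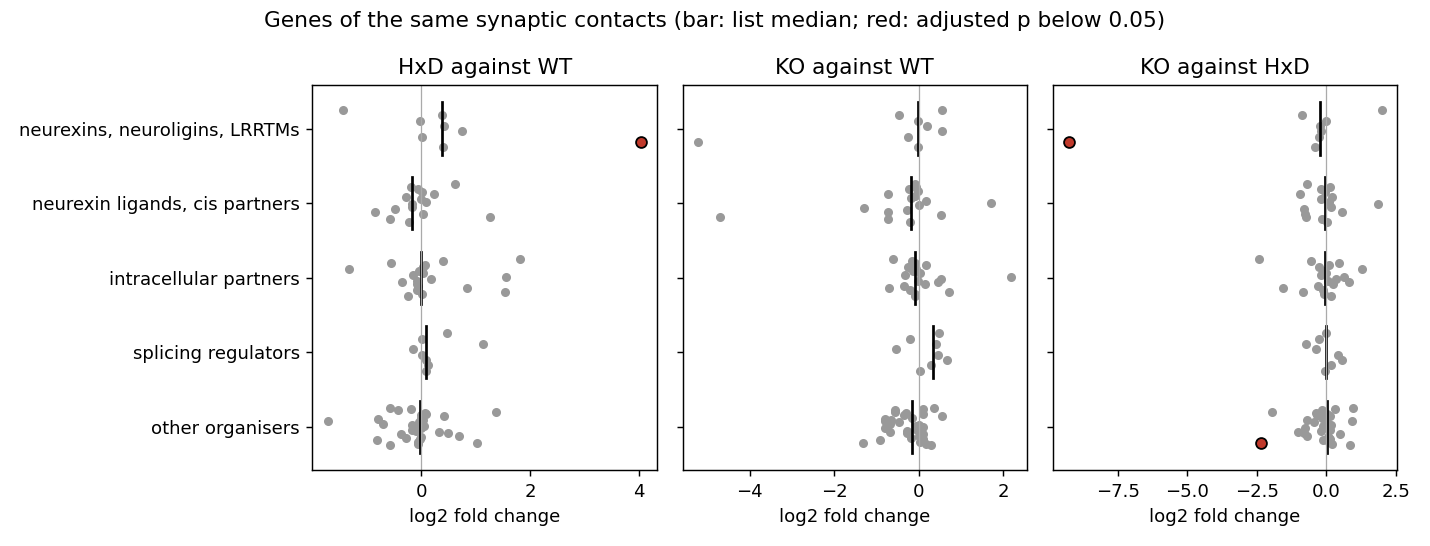
Each point is the log2 fold change (x axis) of 1 tested gene of a list (y axis) in 1 comparison, with black bars at list medians and red points for genes with an adjusted p below 0.05. Adgrl3 is drawn only for KO against WT because it was listed at 0 in HxD. The red points are Lrrtm2 in HxD against WT, and Lrrtm2 and Cadm1 in KO against HxD.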

How the data were processed

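The authors deposited 1 table with an estimated count per gene symbol and library, without normalization, per the file headers and values. FastQC, Trim Galore 0.6.7, STAR 2.7.1a, SAMtools 1.9, StringTie 2.2.3 and the builds GRCm39 and mm10 are named, per the submitters' processing notes. How reads were assigned by strand was not given in the sources used here. Of 21769 rows, 56 on repeated symbols were left out. Counts were rounded and tested with edgeR 4.0.16 in R 4.3.3 (TMM factors of 0.968 to 1.02, filterByExpr at a minimum count of 10, 11693 genes, robust quasi-likelihood F test, two-sided). All 12 libraries entered 1 fit on genotype with 9 residual degrees of freedom, and calls needed a Benjamini-Hochberg adjusted p below 0.05. From these deposited counts and the TMM factors, CPM was derived. DESeq2 1.42.0 and limma 3.58.1 served as alternatives. Library totals of 5791642 to 10915574 limit counting error only.

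The members and lists were chosen with earlier results of these data known. Named genes are the 9 members, the alpha-catenins, Tet1, called members of each partner list (up to 4 per comparison, otherwise the 2 with the smallest p) and the 5 genes most correlated with a called member, of which 1 is not reported here. Gapdh, Actb and single cell type markers were named outside this rule after their values were seen. Alternatives were scaling, filters, tool, 8-library fits, replicate block, transcript-length trend, a threshold of 0.1 and each library left out. In simulated KO against WT on 11367 genes, the fit recovered 42.4% of 99 genes set to a 2-fold change and 68.7% of 99 set to 4-fold, with 8 false calls, and simulated HxD against WT, with no change, gave 0 calls.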

Additional observations from a re-analysis of the deposited data

Results flagged for a closer look

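Of 26 groups of 4 libraries examined over the 9 genes, 6 had 1 library whose distance from the other 3 was large for the group's range by Dixon's 95% criterion. Chance flags about 1 group in 20, but the 2 groups of Nlgn1 had to meet the criterion because their other 3 libraries hold the same value, and they are given as values only. Nrxn2 stood at 63.1 CPM in WT 4 against 331 to 381 in the other WT libraries. Nlgn2 stood at 32.1 CPM in WT 4 against 3.90 to 7.64, and at 42.0 in KO 3 against 4.27 to 5.88. Nlgn3 stood at 23.4 CPM in KO 2 against 165 to 183 in the other KO libraries. Nlgn1 stood at 2.31 CPM in WT 3 and at 16.5 in HxD 1, where the other 3 libraries of the genotype were each listed at 0.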

How the results depend on the processing

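In HxD against WT, 1 gene of the set, Lrrtm2, was called, and 0 were called in the fit of the 8 libraries compared and with the replicate block. Leaving out 1 library gave 0 to 1 called genes, with 0 without WT 4. In KO against WT, edgeR called 0 genes (1 at an unadjusted p below 0.05), the DESeq2 Wald test and a threshold of 0.1 each gave 1, and leaving out 1 library gave 0 to 1. In KO against HxD 1 was called, limma-voom called 0 (adjusted p = 0.355 for Lrrtm2), and leaving out 1 library gave 1 to 2, the second being Nrxn2 without WT 4. The cause of these changes was not tested. Lrrtm2 kept its direction in every setting run, with log2 fold changes of 3.64 to 4.64, -5.62 to -4.30 and -9.64 to -8.94 in the same order of comparisons, but the fit of 8 libraries gave no value for KO against WT because the gene did not pass its filter. Over all genes, the DESeq2 Wald test called 172 in HxD against WT where edgeR called 105, 288 in KO against WT where edgeR called 18, and 396 in KO against HxD where edgeR called 119. In KO against WT, limma-voom and the 8-library fit called 0 (1137 and 1171 at an unadjusted p below 0.05), the replicate block 5, a threshold of 0.1 gave 33, and leaving out 1 library gave 12 to 35, the highest without WT 4. Same-numbered libraries did not deviate together (correlations of -0.071 to 0.078 over 12 pairs, and the highest correlation fell on the same number in 8 of 24 cases), so the numbers were not read as pairs. In HxD against WT, pairs of an odd-numbered with an even-numbered library correlated at -0.118 to -0.011. Odd with odd and even with even gave -0.014 to 0.078. Comparisons with KO gave both signs in either kind of pair. Whether the libraries fall into such sets, and the part of this in the spread of the members, was not tested. With the replicate block, Lrrtm2 had adjusted p-values of 0.0916, 0.245 and 0.00686 in the 3 comparisons. Scaling by other factors moved the median of all genes by at most 0.017 on the log2 scale. Low counts limit Lrrtm2 in KO, Lrrtm4 and Nlgn1.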
